A study of Mus musculus with 10 samples.

Results

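Cytochrome P450 enzymes (Cyp genes) were followed by RNA-seq in islets isolated from the pancreas of sedentary mice and of mice trained on a treadmill. Members were the genes of the deposited table whose symbol is Cyp followed by a digit, a letter and a number, without Cyp51 and without pseudogenes, and with at least 10 counts in 3 or more of the 10 libraries. Of 52178 genes in the table, 94 carried such a symbol and 43 of these met the count rule. Both groups were male C57Bl/6 retired breeders with no transgene or drug named in the labels. The 5 exercise libraries (numbered 6 to 10) came from mice that ran 1 h a day on 5 days a week at 17 cm/s on a 5 degree incline. Training lasted 2 weeks and followed 3 days of acclimatization. The 5 sedentary libraries (numbered 1 to 5) came from mice that did not train. Islets of both groups were picked by hand after collagenase digestion of the pancreas and placed in medium with 11 mM glucose. The labels do not tie libraries to single animals, so the spread that p-values rest on may be technical in part.

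P450 enzymes are heme proteins that insert an oxygen atom into a substrate, with electrons passed on from NADPH by the reductase Por or, in mitochondria, by ferredoxin. Members of families 1, 2 and 3 oxidise drugs, toxins and fatty acids and are typical of liver and of the absorptive cells of the small intestine, where the nuclear receptors Nr1i2 (PXR) and Nr1i3 (CAR), the aryl hydrocarbon receptor Ahr and the factor Hnf4a set their level. Family 4 hydroxylates the end carbon of fatty acids and eicosanoids, and the remaining families build or clear bile acids, oxysterols, vitamin D, retinoic acid and steroid hormones.

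Libraries held 15081922 to 23222704 counts. Levels are given as CPM, the count of a gene brought to a common library size, after scaling by trimmed-mean (TMM) factors that adjust for a few genes taking many counts. Fold changes are exercise against sedentary on the log2 scale with their standard error (SE), and adjusted p-values come from edgeR's quasi-likelihood test over 15298 genes, with a threshold of 0.05. Sedentary 1 and 2 stood apart. Their summed islet hormone and endocrine markers were at 9051 and 41654 CPM, against 147447 to 219731 CPM in sedentary 3 to 5 and 147121 to 202477 CPM in the exercise libraries. The summed level of 26 markers of intestinal epithelium was 17884 and 25176 CPM in sedentary 1 and 2, 3818 to 5150 CPM in sedentary 3 to 5 and 482 to 1125 CPM after exercise. Of these 26 markers 25 fell and none rose, and none of the 6 defining ones was at 0 in all libraries of a group. The remaining marker, Slc2a5, did not pass (log2 fold change 0.67, adjusted p = 0.101, edgeR). It stood at 54.9 to 149 CPM in the sedentary and 134 to 205 CPM in the exercise libraries. That is a large part of the exercise sums, so the sums understate the fall of the other markers. The summed level of 18 acinar cell markers was 65136 to 133555 CPM in the sedentary and 143623 to 380584 CPM in the exercise libraries, highest in exercise 9, and 10 of the 18 rose. Stomach mucosa markers summed to 5758 and 2452 CPM in sedentary 1 and 2, 291 to 611 CPM in sedentary 3 to 5 and 225 to 737 CPM after exercise. Hepatocyte markers overlapped between the groups, with sums of 27.0 to 61.6 CPM against 35.1 to 74.7 CPM, and 1 of the 8 that could be tested fell. Duct markers summed to 241 to 1195 CPM in the sedentary and 182 to 342 CPM in the exercise libraries, and 3 of 8 fell. The part of these other cells in the P450 results was not tested, and in bulk RNA fewer cells of a type and less RNA per cell cannot be told apart.

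The start regions of 35 of the 43 members were found in the RefSeq promoter table (build GRCm38.p6). The letters CAAAGTCCA, a core of the sites bound by HNF4 factors, were searched on both strands in the 250 bases before each start and found in 3 of the 35 member genes, against 0.451% of 27025 genes in the table. Of these 35 member genes 20 fell, among them all 3 with the match: Cyp2c65, Cyp2c68 and Cyp3a11. Their stretches from 150 to 51 bases before the start are printed with that of Cyp2c66, the close copy of Cyp2c65, since these genes are among those the results turn on. Capitals mark the match.
Cyp2c65, chr19:39060856-39060955, plus strand: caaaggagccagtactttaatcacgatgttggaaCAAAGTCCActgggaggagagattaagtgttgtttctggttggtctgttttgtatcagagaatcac
Cyp2c68, chr19:39741152-39741251, minus strand: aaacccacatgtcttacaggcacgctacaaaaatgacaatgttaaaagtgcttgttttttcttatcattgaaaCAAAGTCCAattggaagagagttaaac
Cyp3a11, chr5:145879905-145880004, minus strand: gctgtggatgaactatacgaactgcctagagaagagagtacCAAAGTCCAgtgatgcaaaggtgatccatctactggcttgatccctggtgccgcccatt
Cyp2c66, chr19:39113748-39113847, plus strand: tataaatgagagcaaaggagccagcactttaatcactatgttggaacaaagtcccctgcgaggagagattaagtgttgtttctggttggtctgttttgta
Cyp2c66 has no full match in its window, and its closest letters, 104 to 96 bases before the start, differ from the motif by A9C, counted from 1 at the motif's 5′ end. The other motifs searched stood as follows. GCGTG, the core bound by Ahr, was in 11 of the 35 member genes and in 30.9% of all genes. TATAAA was in 13 and in 14.3%, and TTTATNG, the core bound by Cdx factors, in 6 and in 11.3%. The longer HNF1 motif and the steroid receptor palindrome were in no member and in 0.0111% and 0.440% of all genes. Motifs were counted separately and may overlap. A match is a description of letters and not of binding.

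Most P450 members of the drug and fatty acid families were lower after exercise, and 1 bile acid enzyme was higher. Of the 43 members, 35 had enough counts to be tested, of which 22 fell, 1 rose (Cyp39a1) and 12 did not pass. Over all 15298 genes tested, 11.4% fell and 2.44% rose, 13.9% in all. The median log2 fold change was -2.50 over the tested members and -0.000719 over all genes. Every exercise library was below every sedentary library in 23 tested members, the 22 that fell and Cyp4f13, against 11.4% of all genes, and the opposite held for Cyp39a1 alone, against 6.24%. These counts carry a limit of the choice of members. The count rule was met within each group by 30 members, in the sedentary libraries only by 11 and in the exercise libraries only by 2, so that members seen in 1 group had to differ. Just inside the rule, with 10 counts in 4 libraries, were Cyp2c23, Cyp2d10, Cyp2e1, Cyp2j5, Cyp4a32 and Cyp4f15, and just outside, with 2, were Cyp2c67 (32 counts in the sedentary and 7 in the exercise libraries) and Cyp2d9 (44 and 5). Of the 51 symbols below the rule, 13 had no count in any library. Of the 22 that fell, 4 were under 10 counts in 3 or more exercise libraries.

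**Figure D1:**
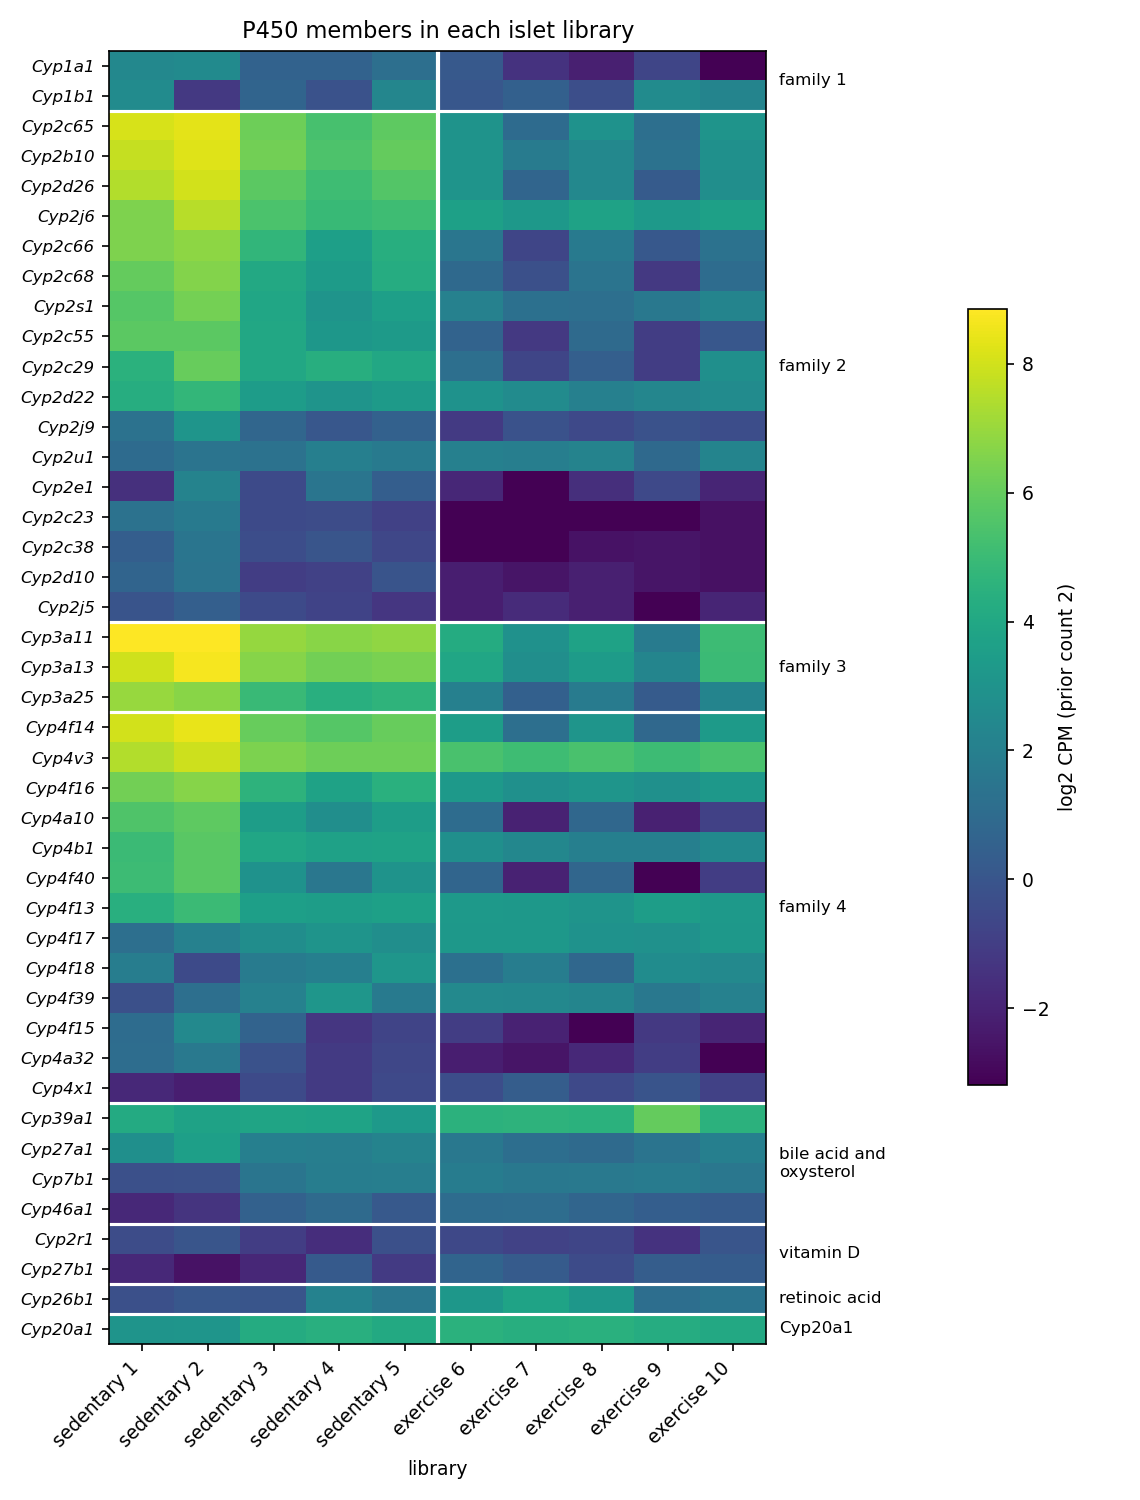
Level of each of the 43 P450 members in each library, as log2 CPM, with members in rows ordered by role and libraries in columns. The members that fell are highest in sedentary 1 and 2, intermediate in sedentary 3 to 5 and lowest in exercise 6 to 10.

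The fall was graded within the sedentary group. In all 22 members that fell, sedentary 1 and 2 were both above sedentary 3 to 5, as for the intestinal markers. The summed level of the 43 members was 2614 and 3457 CPM in sedentary 1 and 2, 898, 675 and 797 CPM in sedentary 3 to 5, and 267, 192, 230, 213 and 286 CPM in exercise 6 to 10. Without sedentary 1 and 2, 20 of the 22 still fell, all 22 had fold changes closer to 0, and 21 members fell in all, against 8.68% of the 15692 genes then tested, and 1 rose, against 4.1%. Fold changes of the 22 members lay between -4.92 and -1.42 with all libraries and between -4.06 and -0.74 without these 2, and for 8 of them the first was over 1.5 times the second on the log2 scale. With limma-voom in place of edgeR 13 of the 22 passed; Cyp1a1, Cyp2c68, Cyp2s1, Cyp2d22, Cyp2j9, Cyp4b1, Cyp4a10, Cyp4f16 and Cyp4f40 did not (limma-voom adjusted p 0.0532 to 0.101).

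**Figure D2:**
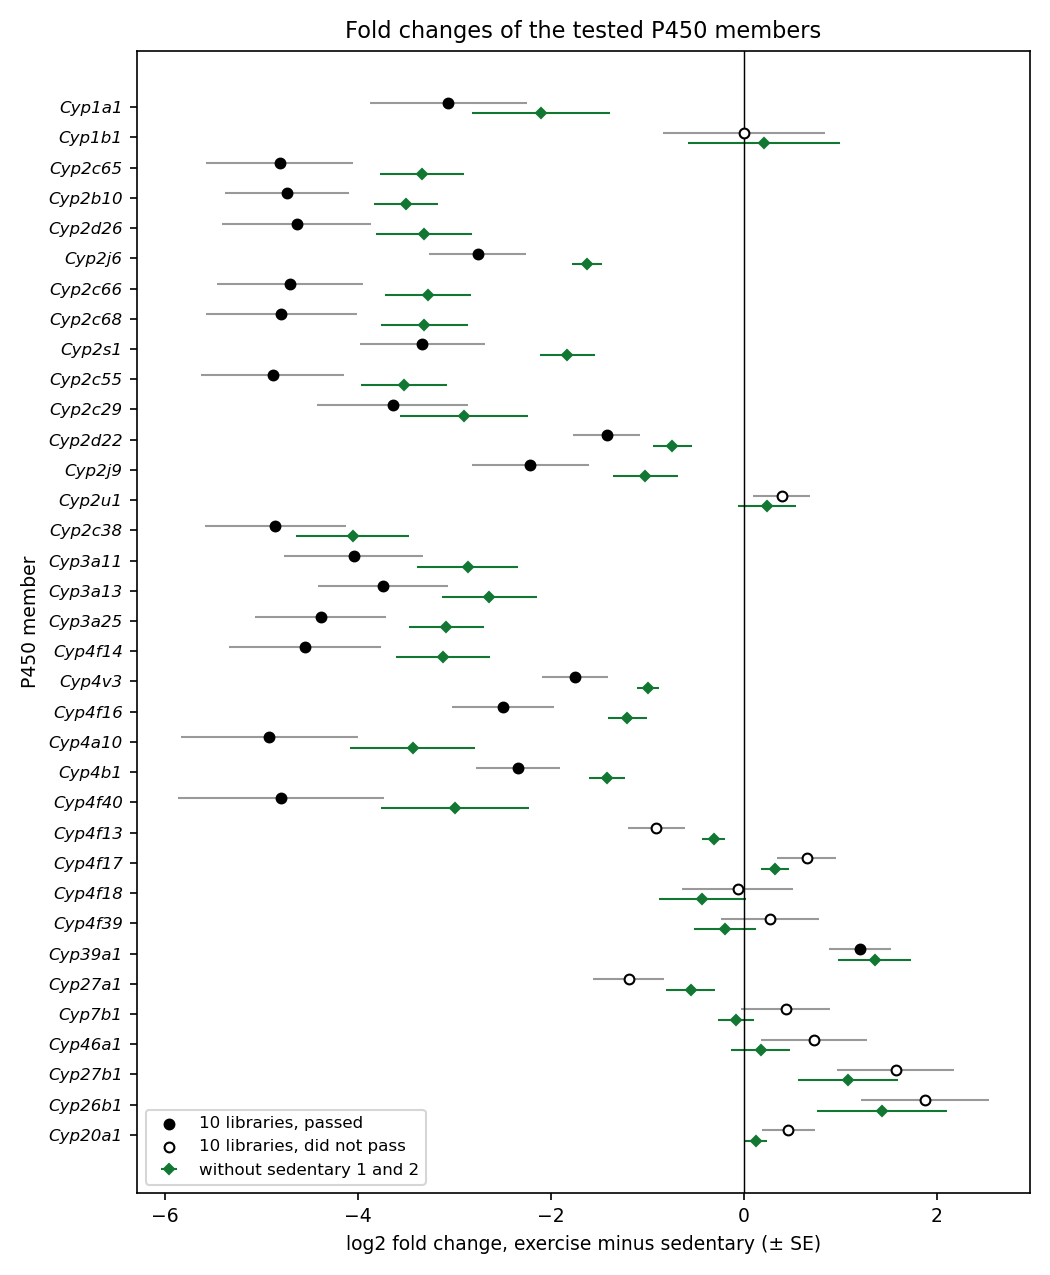
Log2 fold change (exercise minus sedentary, ± SE) of the 35 tested P450 members, in rows by role, with all 10 libraries (circles, filled where the test passed) and without sedentary 1 and 2 (green diamonds). Most family 2, 3 and 4 members lie left of 0 with both sets of libraries and closer to 0 without sedentary 1 and 2, and Cyp39a1 lies right of 0 with both.

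Family 1 holds the classic targets of Ahr, and 1 of its 2 members fell. Cyp1a1, which oxidises aromatic hydrocarbons, stood at 5.32, 5.73, 1.39, 1.38 and 2.20 CPM in sedentary 1 to 5 and at 1.01, 0.260, 0.115, 0.515 and 0 CPM in exercise 6 to 10. All exercise values were below all sedentary ones. Its mean went from 3.20 ± 2.15 (SD, n = 5) to 0.379 ± 0.400 CPM (SD, n = 5), a log2 fold change of -3.06 (SE 0.81, adjusted p = 0.0337, edgeR). This call was lost when sedentary 1, sedentary 2 or exercise 7, 8 or 9 was left out (highest adjusted p 0.0892, edgeR), and without both sedentary 1 and 2 the change was -2.10 (adjusted p = 0.0885, edgeR). Cyp1b1, which also hydroxylates estrogens, stood at 6.10, 0.328, 1.498, 0.777 and 4.90 CPM in the sedentary and 0.9499, 1.30, 0.690, 6.05 and 4.54 CPM in the exercise libraries. Its groups overlapped, with a log2 fold change of -0.00216 (SE 0.84, adjusted p = 0.999, edgeR). Ahr itself did not pass.

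Family 2, the largest and most varied of the drug-metabolising families, had 17 members, of which 13 were tested and 12 fell, with a median log2 fold change of -4.64. Cyp2b10, the best known target of Nr1i3, stood at 222, 303, 78.2, 44.4 and 63.0 CPM in sedentary 1 to 5 and at 8.21, 3.39, 5.29, 2.45 and 7.18 CPM in exercise 6 to 10. The lowest sedentary library was above the highest exercise library. The means were 142 ± 114 and 5.30 ± 2.44 CPM (SD, n = 5 each), a log2 fold change of -4.74 (SE 0.64, adjusted p = 0.00900, edgeR).

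The Cyp2c enzymes of this group epoxidise or hydroxylate arachidonic acid and drugs, and all 6 that were tested fell. Cyp2c65 took the most counts among them, with 275, 329, 73.2, 40.0 and 58.6 CPM in the sedentary and 7.82, 1.89, 7.48, 2.19 and 8.06 CPM in the exercise libraries (log2 fold change -4.81, SE 0.77, adjusted p = 0.00900, edgeR). Its neighbour Cyp2c66 followed the same order of groups, with 90.4, 110, 26.8, 12.2 and 20.2 CPM against 2.79, 0.521, 3.16, 0.966 and 2.39 CPM. These 2 genes cannot be fully separated by short reads: 33.5% of the 31-base words of Cyp2c65 transcripts are also in those of Cyp2c66. Cyp2c55, which forms hydroxylated arachidonic acid in the gut, stood at 56.5, 56.7, 15.97, 9.07 and 10.2 CPM and at 1.45, 0.325, 1.84, 0.386 and 0.928 CPM (log2 fold change -4.89, adjusted p = 0.00900, edgeR). Cyp2c68 shared 62.0% of its words with other genes, mostly Cyp2c40, and changed by -4.80. Cyp2c29 stood at 22.5, 66.3, 16.1, 20.4 and 16.2 CPM in the sedentary and 2.18, 0.521, 1.27, 0.386 and 6.79 CPM in the exercise libraries. Exercise 10 stood above the other exercise libraries, and the log2 fold change was -3.64 (adjusted p = 0.0153, edgeR). Cyp2c38 was close to the limit of detection, with 113 counts in the sedentary libraries together and 3 in the exercise libraries, a ratio of 33.8 after scaling (95% interval 11.3 to 166, counting error only).

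Cyp2d26 stood at 173, 259, 56.7, 34.7 and 49.5 CPM in the sedentary and 8.21, 1.56, 5.29, 1.09 and 6.69 CPM in the exercise libraries (log2 fold change -4.64, adjusted p = 0.00900, edgeR). Cyp2d22 changed less, by -1.42 (adjusted p = 0.0244, edgeR), and its call was lost without sedentary 1 or without exercise 7, 8, 9 or 10 (highest adjusted p 0.0681, edgeR). Without both sedentary 1 and 2 the change of Cyp2d22 was -0.74 and passed (adjusted p = 0.0377, edgeR).

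Cyp2j6 and Cyp2s1 fell less than the Cyp2c genes. Cyp2j6, an arachidonic acid epoxygenase, stood at 91.8, 189, 43.4, 30.4 and 34.7 CPM in sedentary 1 to 5 and at 12.5, 9.24, 13.3, 9.66 and 12.6 CPM in exercise 6 to 10. Its log2 fold change was -2.76 (SE 0.50, adjusted p = 0.00908, edgeR), and -1.63 without sedentary 1 and 2. Cyp2s1 stood at 50.02, 79.4, 15.3, 8.12 and 12.2 CPM and at 4.19, 2.28, 2.19, 2.96 and 4.64 CPM. Its change of -3.34 (adjusted p = 0.0105, edgeR) became -1.83 without sedentary 1 and 2. The groups of both genes did not overlap. Cyp2j9 changed by -2.22 (adjusted p = 0.0382, edgeR), a call lost without sedentary 1 or without any 1 exercise library (highest adjusted p 0.0892, edgeR). The change of Cyp2j9 was -1.33 without sedentary 2, and -1.02 without both sedentary 1 and 2 (adjusted p = 0.0778, edgeR).

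Cyp2u1, a fatty acid hydroxylase, was the tested family 2 member that did not fall. It stood at 1.91, 2.62, 2.44, 3.89 and 3.33 CPM in the sedentary and 3.97, 3.78, 4.49, 1.80 and 4.59 CPM in the exercise libraries, which overlap (log2 fold change 0.39, SE 0.29, adjusted p = 0.351, edgeR). Cyp2e1, the ethanol-oxidising enzyme of liver, did not pass the default filter with 10 libraries. It stood at 0.239, 4.48, 0.610, 2.72 and 1.22 CPM in the sedentary and 0.168, 0, 0.230, 0.580 and 0.146 CPM in the exercise libraries. It passed as lower without sedentary 1 and 2 (log2 fold change -2.73, adjusted p = 0.0303, edgeR), with a filter of 10 counts in 3 libraries (-3.03, adjusted p = 0.04597, edgeR) and with DESeq2 (DESeq2 adjusted p = 0.00423), but not with no filter (adjusted p = 0.0519, edgeR). The hepatocyte marker Alb was also lowest of the sedentary group in sedentary 1, at 0.956, 13.5, 2.61, 14.04 and 10.2 CPM, and highest of the exercise group in exercise 9, at 2.46, 0.976, 0.921, 5.35 and 0.781 CPM. Its part in the Cyp2e1 values was not tested. Of the other untested members, Cyp2c23 had 133 counts against 1, a ratio of 119 (95% interval 21.03 to 4744), Cyp2d10 had 107 against 7 and Cyp2j5 had 65 against 10.

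All 3 members of family 3, the main drug oxidases of liver and gut, fell, with a median log2 fold change of -4.05. Cyp3a11, the textbook target of Nr1i2, took the most counts of all members in each sedentary library, at 452, 459, 122, 104 and 113 CPM. In exercise 6 to 10 it stood at 18.6, 7.42, 13.4, 3.41 and 32.7 CPM. The means of 250 ± 188 and 15.1 ± 11.4 CPM (SD, n = 5 each) gave a log2 fold change of -4.05 (SE 0.72, adjusted p = 0.00900, edgeR). Cyp3a13 had the same order, with 254, 406, 102, 78.8 and 84.7 CPM against 15.1, 6.64, 10.5, 4.70 and 32.0 CPM (log2 fold change -3.74, adjusted p = 0.00900, edgeR). Exercise 10 was the highest exercise library for both, and exercise 9 the lowest. Cyp3a25 stood at 127, 103, 30.7, 20.7 and 25.0 CPM and at 4.08, 1.30, 3.39, 1.09 and 4.59 CPM (log2 fold change -4.39, adjusted p = 0.00900, edgeR). Reads of Cyp3a25 are uncertain, since 41.2% of its 31-base words are also in Cyp3a59, whereas Cyp3a13 shared 0.239% with any gene.

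Family 4 was divided. Of its 13 members 10 were tested, 6 fell and 4 did not pass, with a median log2 fold change of -2.05. Cyp4f14, which hydroxylates leukotriene B and vitamin E side chains, stood at 261, 352, 65.1, 50.02 and 65.8 CPM in the sedentary and 11.1, 2.21, 8.34, 1.74 and 10.3 CPM in the exercise libraries (log2 fold change -4.55, SE 0.79, adjusted p = 0.00900, edgeR). Cyp4a10, a fatty acid hydroxylase and classic target of Ppara, stood at 45.9, 58.4, 11.4, 6.61 and 11.1 CPM and at 1.96, 0.130, 1.67, 0.129 and 0.439 CPM. Its log2 fold change of -4.92 was the most negative of the tested members (adjusted p = 0.00954, edgeR). Part of it is uncertain by sharing of 36.5% of its words with Cyp4a32.

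Cyp4v3, a fatty acid hydroxylase, fell less and took the most counts of all members in exercise 6, 7, 8 and 10. It stood at 177, 239, 87.4, 73.4 and 73.8 CPM in sedentary 1 to 5 and at 42.2, 33.9, 41.8, 32.9 and 42.0 CPM in exercise 6 to 10 (log2 fold change -1.75, SE 0.34, adjusted p = 0.0110, edgeR). The change was -0.99 without sedentary 1 and 2. Cyp4b1, which activates several plant and lung toxins, stood at 32.6, 54.1, 15.03, 12.9 and 13.2 CPM and at 6.76, 5.01, 3.85, 3.86 and 5.57 CPM (log2 fold change -2.35, adjusted p = 0.00929, edgeR; -1.42 without sedentary 1 and 2). In both genes the exercise libraries lay within a narrow range below all sedentary ones.

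The Cyp4f genes differed among themselves. The start regions of Cyp4f39, Cyp4f16, Cyp4f40, Cyp4f15, Cyp4f14 and Cyp4f13 lie on chromosome 17 between bases 32452473 and 32947611. Cyp4f16 changed by -2.50 (adjusted p = 0.0147, edgeR; -1.21 without sedentary 1 and 2). Cyp4f40 changed by -4.80 (adjusted p = 0.0174, edgeR), a call lost without exercise 10 (adjusted p = 0.0501, edgeR), and by -3.00 without sedentary 1 and 2. Cyp4f13 did not pass (-0.91, adjusted p = 0.0644, edgeR). It passed as lower with library totals (adjusted p = 0.00863, edgeR), with DESeq2 (DESeq2 adjusted p = 0.0282), without sedentary 3 (adjusted p = 0.0476, edgeR) and without sedentary 4 (adjusted p = 0.0315, edgeR), and its change was -0.32 without sedentary 1 and 2. Cyp4f39 did not pass (0.27, adjusted p = 0.709, edgeR). Cyp4f17 stood at 2.21, 4.10, 6.32, 8.03 and 6.56 CPM in the sedentary and 9.33, 9.24, 7.48, 7.34 and 9.32 CPM in the exercise libraries, with sedentary 1 and 2 lowest rather than highest (0.65, adjusted p = 0.161, edgeR). Cyp4f18, which lies elsewhere, changed by -0.07 (adjusted p = 0.938, edgeR). Differences between these genes were not tested. The untested Cyp4f15, Cyp4a32 and Cyp4x1 had 176, 123 and 36 sedentary counts in all, against 17, 12 and 62 after exercise.

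Of the 4 bile acid and oxysterol enzymes tested 1 rose, none fell and 3 did not pass, with a median log2 fold change of 0.58 over members that differ in sign. Cyp39a1 (ENSMUSG00000023963), which hydroxylates the brain-derived oxysterol on the way to bile acids, stood at 17.6, 13.1, 14.03, 13.7 and 9.59 CPM in sedentary 1 to 5 and at 22.9, 24.2, 22.7, 63.8 and 23.2 CPM in exercise 6 to 10. All exercise libraries were above all sedentary ones, 4 of them close together and exercise 9 far above. The means were 13.6 ± 2.84 and 31.3 ± 18.1 CPM (SD, n = 5 each), a log2 fold change of 1.20 (SE 0.32, adjusted p = 0.0343, edgeR). Without exercise 9 the change was 0.82 and passed (adjusted p = 0.02996, edgeR). Without sedentary 1 and 2 it was 1.36 (adjusted p = 0.0445, edgeR). The call was lost without sedentary 2, sedentary 5, exercise 7 or exercise 8 (highest adjusted p 0.0680, edgeR), and with limma-voom (limma-voom adjusted p = 0.0658). Acinar markers move with Cyp39a1: their summed level was also above all sedentary libraries in every exercise library, and highest in exercise 9, and their part in the result was not tested.

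Cyp27a1, the sterol hydroxylase that opens the acidic route of bile acid synthesis, stood at 6.87, 11.96, 3.88, 3.76 and 4.45 CPM in the sedentary and 3.02, 2.08, 1.84, 2.58 and 3.91 CPM in the exercise libraries (log2 fold change -1.20, SE 0.37, adjusted p = 0.0555, edgeR). It passed as lower without sedentary 3 (adjusted p = 0.0433, edgeR), without sedentary 4 (adjusted p = 0.0318, edgeR), with library totals (adjusted p = 0.0139, edgeR) and with DESeq2 (DESeq2 adjusted p = 0.0159), and without sedentary 1 and 2 the change was -0.55. Cyp7b1, which hydroxylates oxysterols and some steroids, stood at 0.717, 0.764, 2.66, 3.63 and 3.82 CPM and at 3.46, 2.93, 3.05, 3.41 and 2.83 CPM (log2 fold change 0.43, adjusted p = 0.498, edgeR). Cyp46a1, the cholesterol hydroxylase of neurons, stood at 0.179, 0.273, 1.33, 1.86 and 1.03 CPM and at 1.96, 2.02, 1.55, 1.22 and 1.07 CPM (log2 fold change 0.72, adjusted p = 0.352, edgeR). For Cyp7b1 and Cyp46a1 sedentary 1 and 2 were the lowest libraries, like the islet markers, and sedentary 3 to 5 overlapped the exercise group.

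**Figure D3:**
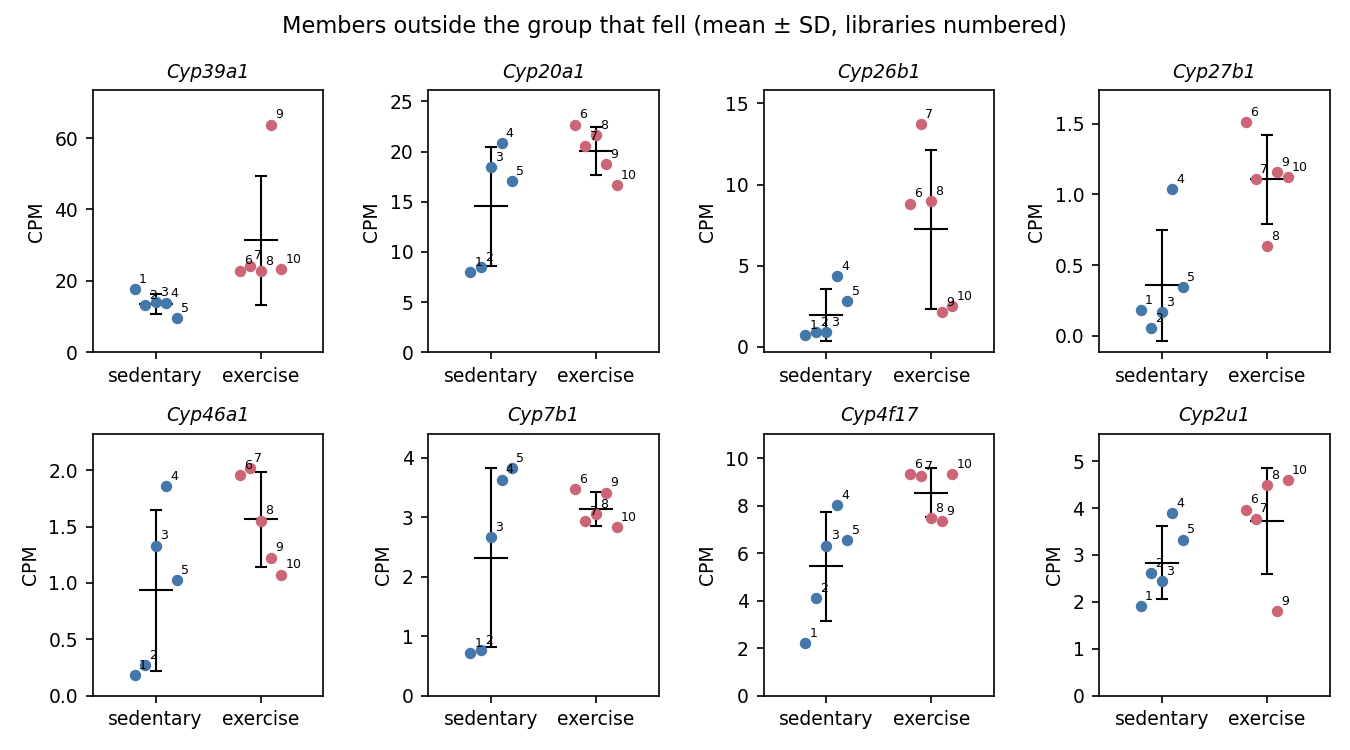
CPM of 8 members outside the group that fell, with each library as a numbered point (blue sedentary, red exercise) and black bars for mean ± SD. Cyp39a1 has no overlap between groups and 1 high point at 63.8 CPM in exercise 9, and the other 7 members overlap.

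Vitamin D, retinoic acid and the orphan Cyp20a1 gave no call. Cyp26b1, which clears retinoic acid, stood at 0.717, 0.928, 0.887, 4.36 and 2.84 CPM in the sedentary and 8.83, 13.7, 8.98, 2.13 and 2.49 CPM in the exercise libraries. Exercise 6 to 8 were above all sedentary libraries and exercise 9 and 10 within their range (log2 fold change 1.88, SE 0.66, adjusted p = 0.0831, edgeR). It passed as higher without sedentary 4 (2.41, adjusted p = 0.0312, edgeR) and with DESeq2 (DESeq2 adjusted p = 0.0239). Cyp27b1, which makes active vitamin D, stood at 0.179, 0.0546, 0.166, 1.04 and 0.343 CPM and at 1.51, 1.11, 0.633, 1.16 and 1.12 CPM (1.57, SE 0.60, adjusted p = 0.103, edgeR). It also passed as higher without sedentary 4, the one sedentary library inside the exercise range (2.52, adjusted p = 0.00727, edgeR). Cyp2r1, which makes the circulating form of vitamin D, was not tested, at 0.216 to 0.874 CPM and 0.258 to 0.879 CPM. Cyp20a1, with no settled substrate, stood at 8.01, 8.46, 18.4, 20.9 and 17.0 CPM and at 22.7, 20.5, 21.6, 18.7 and 16.6 CPM (0.46, adjusted p = 0.253, edgeR). No steroid hormone enzyme met the count rule.

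The make-up of the P450 transcripts differed between the groups. Family 2 summed to 1077, 1542, 360, 228 and 301 CPM in the sedentary and 61.4, 31.2, 52.1, 28.7 and 62.9 CPM in the exercise libraries. Family 3 summed to 832, 968, 254, 204 and 223 CPM against 37.7, 15.4, 27.3, 9.21 and 69.3 CPM, and family 4 to 658, 905, 239, 192 and 226 CPM against 101, 77.3, 88.4, 74.9 and 96.9 CPM. The bile acid and oxysterol group summed to 25.3, 26.1, 21.9, 22.9 and 18.9 CPM against 31.3, 31.2, 29.2, 71.0 and 31.002 CPM. Families 2 and 3 each took more counts than family 4 in sedentary 1 to 4, and in sedentary 5 family 2 did while family 3 (223 CPM) was close to family 4 (226 CPM). Family 4 took more than either in every exercise library. All members together took 0.0756% to 0.376% of the counts of a sedentary and 0.0142% to 0.0303% of those of an exercise library.

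**Figure D4:**
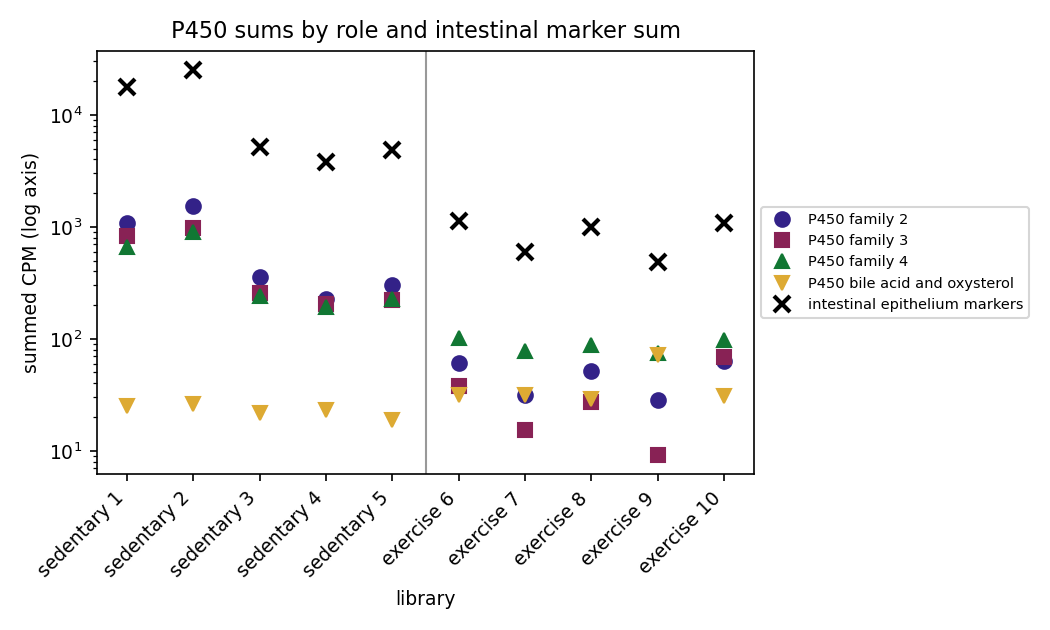
Summed CPM of P450 family 2, family 3, family 4 and the bile acid and oxysterol members in each library, on a log axis. Sedentary 1 to 5 and exercise 6 to 10 run along the x axis, and black crosses mark the summed intestinal epithelium markers. Among the P450 sums, families 2 and 3 drop furthest. They go from at least 204 CPM in the sedentary libraries to at most 69.3 CPM in the exercise libraries. The bile acid and oxysterol sum lies between 18.9 and 71.0 CPM throughout.

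On the scale of CPM per kilobase of exon, which allows genes to be compared, the order of mean levels in the sedentary libraries was Cyp2c65 at 80.5, Cyp2b10 at 67.3, Cyp4f14 at 65.6, Cyp2d26 at 63.9 and Cyp3a13 at 62.6. Differences among these 5 were smaller than the spread over the sedentary libraries. In the exercise libraries the order was Cyp39a1 at 10.3, Cyp4v3 at 10.1, Cyp20a1 at 8.77 and Cyp3a13 at 4.67. Cyp39a1 stood at rank 20 of the 43 in the sedentary libraries, at 4.45 per kilobase. Without exercise 9 it stood at 7.61 per kilobase in the exercise libraries, below Cyp4v3 at 10.498 and Cyp20a1 at 8.91.

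Since the fall moved with the intestinal markers, each member was also set against their sum, a description chosen after the data were seen. The sum includes Slc2a5, which did not fall, and the scale was not computed without it. Per 1000 CPM of intestinal markers, 6 of the 22 members that fell were still lower in every exercise library than in any sedentary library: Cyp2b10, Cyp2c55, Cyp2c65, Cyp2c68, Cyp2d26 and Cyp4f14. On this scale 0.621% of all tested genes were lower and 91% higher without overlap, since the divisor itself fell. The 22 members were picked for their fall, while most tested genes did not fall. The 6 of 22 therefore cannot be set against this share, and nothing is read from the difference. Cyp2b10 stood at 11.6 to 15.2 per 1000 in the sedentary and 5.08 to 7.30 in the exercise libraries. Cyp4f14 stood at 12.6 to 14.6 and at 3.61 to 9.83. For 11 members the groups overlapped, Cyp3a11 among them at 18.2 to 27.3 and 7.08 to 30.3, with exercise 10 the highest of all libraries. Cyp3a13 and Cyp2c29 also had their highest value in exercise 10, at 29.7 and 6.29. For the other 5, Cyp2d22, Cyp2j6, Cyp4b1, Cyp4f16 and Cyp4v3, all exercise libraries were above all sedentary ones. Cyp4v3 stood at 9.50 to 19.2 per 1000 in the sedentary and 37.5 to 68.3 in the exercise libraries. Being higher on this scale is what most genes show, and nothing is read from it for these 5.

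**Figure D5:**
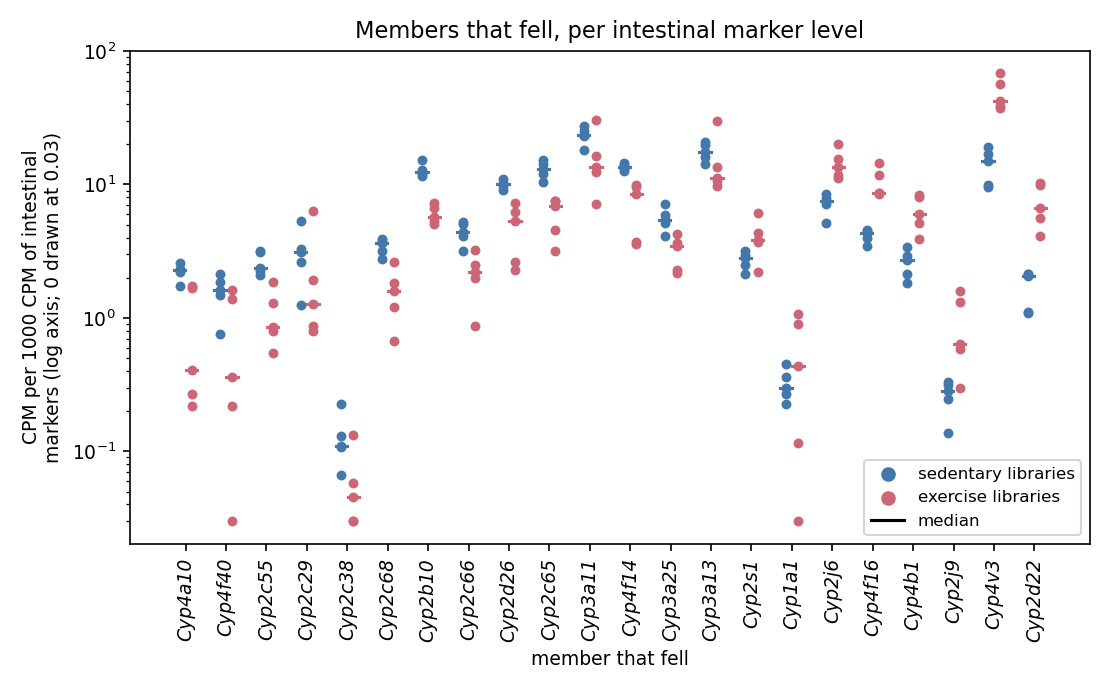
CPM of the 22 members that fell per 1000 CPM of intestinal markers, on a log axis, with a point for each library (blue sedentary, red exercise; 0 drawn at 0.03) and a dash at the median. Members are ordered by the exercise median divided by the sedentary median on this scale, lowest on the left. The red points pass from below or among the blue ones to above them in Cyp2j6, Cyp4f16, Cyp4b1, Cyp4v3 and Cyp2d22.

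Partner genes of the P450 enzymes were counted over a list of 79, of which 68 were tested, 21 fell, 1 rose and 46 did not pass, with a median log2 fold change of -0.66. Over all tested genes 11.4% fell and 2.44% rose, which is the share to set beside the counts of each part of the list. Among the electron donors 3 of 7 fell and 1 rose. Por, the reductase that serves all microsomal P450 enzymes, stood at 111, 192, 104, 111 and 123 CPM in the sedentary and 257, 193, 198, 332 and 174 CPM in the exercise libraries. Sedentary 2 reached into the exercise range, and exercise 9 was highest, as for the acinar markers, whose part was not tested. The change of Por was 1.06 without sedentary 1 and 2. With all libraries its rise of 0.85 (SE 0.23, adjusted p = 0.0382, edgeR) was lost with library totals in place of TMM factors (0.46, adjusted p = 0.0971, edgeR) and without sedentary 1, 3 or 5 or exercise 6, 7, 8 or 9. Cyb5a, the cytochrome that passes an extra electron to some P450 enzymes, stood at 134, 162, 44.8, 38.0 and 54.6 CPM and at 29.6, 21.8, 23.7, 22.8 and 21.97 CPM (-1.85, adjusted p = 0.0164, edgeR; -0.91 without sedentary 1 and 2).

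Of 21 receptors and factors tested 5 fell and none rose. Nr1i2, the receptor for drugs and bile acids, stood at 30.2, 67.3, 11.1, 5.57 and 9.94 CPM in the sedentary and 1.12, 0.651, 1.38, 0.258 and 1.76 CPM in the exercise libraries (-4.56, adjusted p = 0.00900, edgeR). Nr1i3 stood at 32.6, 49.5, 8.87, 5.23 and 6.66 CPM and at 1.34, 0, 0.690, 0.129 and 0.683 CPM (-5.13, adjusted p = 0.00929, edgeR). For both receptors sedentary 1 and 2 were highest and the groups did not overlap, as in all 22 P450 members that fell. Their textbook targets Cyp3a11 and Cyp2b10 are among these 22, and a link to the receptors was not tested. Hnf4a, which islets and gut both use, stood at 264, 527, 86.8, 53.1 and 73.9 CPM and at 36.4, 28.8, 35.7, 35.1 and 28.7 CPM (-2.61, adjusted p = 0.0198, edgeR), a call lost without exercise 7, 8, 9 or 10. Nr1h3, the oxysterol receptor, changed by -1.33, and Ppara, the fatty acid receptor, by -2.77. Without sedentary 1 and 2 the changes were -3.04 for Nr1i2, -3.53 for Nr1i3, -1.09 for Hnf4a and -0.62 for Nr1h3, and all 4 passed. Ppara did not pass then (-0.89, adjusted p = 0.0922, edgeR).

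Eicosanoid and epoxide partners fell in 3 of 10 tested cases. Ephx2, the soluble hydrolase that opens the epoxides made by Cyp2c and Cyp2j enzymes, stood at 300, 339, 79.2, 56.7 and 72.0 CPM in the sedentary and 11.2, 4.23, 11.3, 4.25 and 13.2 CPM in the exercise libraries (-4.25, adjusted p = 0.00900, edgeR). Pla2g4a, which frees arachidonic acid, changed by -2.90, and did not pass without sedentary 1 and 2 (-1.80). Ephx1, the microsomal hydrolase, changed by -0.81. Of the sterol, steroid and retinoid partners 6 of 18 fell, among them Aldh1a1 (-3.87, and -2.35 without sedentary 1 and 2), which makes retinoic acid, and Cyp51 (-0.57), the P450 of cholesterol synthesis that the rule leaves out. Of the heme genes 4 of 12 fell, among them Alas1, the first step of heme synthesis, with -1.53, and -0.68 without sedentary 1 and 2. Several of these calls rest on single libraries. Ephx1 did not pass without exercise 7, 8, 9 or 10, Pla2g4a without sedentary 1 or 2 or exercise 6, 7, 8 or 10, Nr1h3 and Alas1 without sedentary 1 or any 1 exercise library, and Cyp51 without exercise 9 or 10. The number of partners that fell ranged from 7 to 29 when 1 library was left out.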

How the data were processed

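Islet RNA was sequenced as stranded mRNA libraries, 5 sedentary and 5 exercise, per the labels. The deposited values are the authors' estimated counts by Ensembl gene ID, and the submitters' processing notes name fastp and kallisto, without versions. Build and annotation were not given in the sources used here. Values were not whole in 12.6% of cases (tolerance 1e-06), and all were rounded. The members and gene lists were chosen with earlier results of these data known. Genes were tested over the whole table in R 4.3.3 with edgeR 4.0.16 (quasi-likelihood test, minimum count 10, minimum total 15, TMM factors 0.669 to 1.20, Benjamini-Hochberg), which was tested on simulated data. Alternatives were other size factors, library totals, other filters, DESeq2 1.42.0, limma-voom (limma 3.58.1), leaving out sedentary 1 and 2, and leaving out each library. Heat map values use log2 CPM with a prior count of 2. Ratios of 2 summed counts carry exact 95% binomial intervals, which cover counting error only because duplicate reads of a molecule cannot be recognised. No pair of libraries agreed within sampling noise (smallest chi-square per degree of freedom 9.33), and no member had the counts of another gene. Exon lengths and shared 31-base words came from GENCODE vM21 transcripts, which may not be the annotation of the counts, and start regions from RefSeq. Values are named for the 4 tested members of smallest p and the member of highest mean CPM in each role, for every member that rose, for a set of well known members given whatever they showed (such as Cyp1b1, Cyp2e1 and Cyp2u1), and for the 4 partner genes of smallest p in each list. Other members and partners, such as Cyp2c66, Cyp2c29, Cyp2d26, Cyp2d22, Cyp2j9, the Cyp4f genes and Ppara, were named after their values were seen.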

Additional observations from a re-analysis of the deposited data

Results flagged for a closer look

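Of 108 sets of 5 libraries screened, 4 had a library far from the others of its group, and chance alone marks about 1 in 20 such sets. Cyp39a1 stood at 63.8 CPM in exercise 9, against 22.7 to 24.2 CPM in the other exercise libraries. The sum of the bile acid and oxysterol members, which holds Cyp39a1, stood at 71.0 CPM in exercise 9, against 29.2 to 31.3 CPM. Cyb5a stood at 29.6 CPM in exercise 6, against 21.8 to 23.7 CPM. Por stood at 192 CPM in sedentary 2, against 104 to 123 CPM.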

How the results depend on the processing

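No member that rose or fell changed sign under any alternative run; among members that did not pass, at most 3 changed sign (without sedentary 1 and 2). The 22 members that fell were all lower with RLE size factors, library totals, no filter, a filter of 10 counts in 3 libraries and DESeq2, 13 with limma-voom, 20 without sedentary 1 and 2 and 19 to 22 without each single library; 18 kept their call without each single library. With 1 library left out, 0 to 3 members rose and 20 to 25 fell, among all genes 132 to 889 rose and 800 to 2721 fell, and among partner genes 0 to 1 rose and 7 to 29 fell. With library totals 159 genes rose and 4408 fell, no partner rose (0) and 42 fell; this scaling moved the median of all genes by -0.34. DESeq2 called 2 members higher and 30 lower, of 43 tested, and 977 genes higher and 2867 lower. Members lower were 24 with library totals, 27 of 43 with no filter and 28 of 43 with the filter of 10 counts in 3 libraries. With limma-voom 0 members rose and 13 fell, 177 genes rose and 339 fell, and 0 partners rose and 3 fell. Without sedentary 1 and 2, 644 genes and 2 partners rose. The cause was not tested. Members under 10 counts in most exercise libraries are limited by depth. No paired analysis was possible because the groups share no replicate number.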

Other observations

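Of 6 steroid hormone enzymes, all below the count rule, 3 stood high in 1 library, a pattern noticed after the values were seen. Cyp11a1, which starts steroid synthesis, was at 3.19 CPM in exercise 7 and at most at 0.294 CPM elsewhere. Cyp11b1, the last step to corticosterone, was at 3.06 CPM in exercise 7 and at most at 0.345 CPM elsewhere. Cyp21a1 was at 0.911 CPM in exercise 7 and at most at 0.0546 CPM elsewhere. Star, which carries cholesterol into mitochondria, was at 7.68 CPM in exercise 7 and between 0.164 and 1.27 CPM in the other 9 libraries. Among the other 3 enzymes, Cyp17a1 was at 0.260 CPM in exercise 7 and 0.335 CPM in exercise 6, Cyp19a1 was at 0.0651 CPM in exercise 7 and 0.244 CPM in exercise 10, and Cyp11b2 had no count in any library. No test was made on these values.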
